A study of Glycine max with 36 samples.

Results

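UGT1 and LOC732565, a gene with the synonym SGT3, are 2 of the 527 soybean genes named on a cDNA array of 19200 probes. They were found as all probes that the array's annotation pairs with 1 of these genes alone, which gave 7 probes, 4 for UGT1 and 3 for LOC732565. The working name glycosyltransferase rests on the gene names: the gene table gives no protein description, and no enzyme role is given here to LOC732565. Of the 7 probes, 6 had enough values to be tested, 4 for UGT1 and 2 for LOC732565. The third LOC732565 probe, Gm05782, had values on 30 of 36 arrays and is described apart.

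The leaf material was the first trifoliate leaf, its 3 leaflets pooled, of cultivar Williams 82 plants about 2 weeks old, grown in a greenhouse at 25 °C with 16 h of light. Plants received atrazine or bentazon as a mist at 22 to 25 mM, or water with 1% adjuvant, and leaves were taken after 1, 2, 4 and 8 h. The labels name adjuvant for water alone and give a single dose range for both herbicides, so differences in adjuvant or dose cannot be told apart from those in herbicide. The 12 RNA groups were joined in a ring of 12 array types, each hybridised in 3 biological replicates, which gave 3 replicate loops (n = 3). The labels do not say whether these came from separate sowings. The p-values measure the spread of the arrays around the model, pooled over the 12 array types, with the arrays fitted as independent. Residuals of neighbouring arrays in a loop correlated at -0.195.

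Glycosyltransferases of the UGT family move a sugar from a UDP-sugar onto a small acceptor such as a flavonoid, a hormone, a triterpene or a foreign compound. In soybean, bentazon is hydroxylated and the product is then coupled to glucose. Atrazine is detoxified in tolerant plants such as maize mainly by coupling to glutathione, and both herbicides block electron transport at photosystem II.

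All values are differences of log ratios, taken as log2. No label or header names the log base or the numerator channel, so the sign was set by 1 probe, for the ABC transporter gene PDR12, to be positive for bentazon minus water at 2 h. A positive value means the side that PDR12 took and a negative value the other side, and neither side can be read as more or less transcript. Each error is a standard error (SE) of a linear model over the 36 arrays, and a probe was called at an adjusted p of 0.05 in limma, with Benjamini-Hochberg adjustment over 17062 probes. Loop values come from solving each replicate's 12 arrays alone, and values of single arrays still hold the dye term. Arrays of 1 type correlated between -0.29 and 0.79 over all probes. On 4 of 36 arrays the loop closed more tightly with the sign turned: replicates 1 and 3 of the water array at 1 against 2 h, replicate 2 of water at 4 against 8 h and replicate 3 of water against bentazon at 8 h. No array was turned.

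UGT1 carried its clearest differences under bentazon, and they lay in 1 of its 4 probes, Gm05058. At 1 h the 3 arrays that held bentazon and water RNA together gave 1.46, 1.39 and 1.14 for this probe, all on the PDR12 side. The fitted difference was 1.31 ± 0.238 (SE, limma adjusted p = 0.000542). Over the whole array 3.35% of tested probes were called for bentazon minus water at 1 h. At 2 h the loops gave 2.18, 0.98 and 1.22, and the fitted difference was 1.46 ± 0.321 (adjusted p = 0.00329). At 4 h they gave 1.77, 1.29 and 1.61, and the fitted difference was 1.56 ± 0.321 (adjusted p = 0.0012). The background was 7.58% of tested probes at 2 h, and 13.4% after 4 h. By 8 h the difference was 0.37 ± 0.238 (adjusted p = 0.314), with loop values of 0.28, 0.14 and 0.68, and 16.3% of tested probes were called. All 3 loops lay on the PDR12 side at each of the 4 times, and at 1, 2 and 4 h the lowest loop value lay above the highest of 8 h. Without replicate 1 the adjusted p at 1, 2 and 4 h rose to 0.0707, 0.222 and 0.0703.

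In the other 3 UGT1 probes the bentazon values were smaller at 1, 2 and 4 h than in Gm05058, and they were negative at 8 h. At 1 h all 3 loops of each of them lay on the PDR12 side, without a call in the main model. Gm00767 and Gm03591 were called there with array weights (adjusted p = 0.00384 and 0.0122) and with scaled arrays (0.00973 and 0.0438). Gm05862 was called there with only the arrays that held both RNAs (0.0294). Probe Gm00767 stood at 0.67 ± 0.214 at 1 h (adjusted p = 0.0892) and at 0.99 ± 0.289 at 2 h (adjusted p = 0.0286). At 8 h it was called on the opposite side, at -0.67 ± 0.214 (adjusted p = 0.031), with loops at -0.60, -0.88 and -0.53. At 4 h it stood at -0.11 ± 0.289. The call at 2 h was lost when any 1 replicate was left out (adjusted p 0.0854 to 0.292), and that at 8 h under 5 of 15 other settings, with adjusted p of 0.152 without replicate 1 and 0.243 without replicate 2. Probe Gm03591 stood at 0.61 ± 0.233, 0.76 ± 0.315 and 0.38 ± 0.315 by 1, 2 and 4 h without a call. At 8 h it was -0.66 ± 0.233 (adjusted p = 0.0499), with loops at -0.66, -0.78 and -0.54. On the arrays that held both RNAs at 8 h, Gm03591 ranged from -0.88 to -0.67 and Gm00767 from -0.82 to -0.37, all 6 values as labelled on the side away from PDR12. The replicate 3 array, at -0.67 and -0.37, is 1 of the 4 that closed their loop more tightly turned, and turned it would read 0.67 and 0.37. Without those 4 arrays the fitted values were -0.76 (adjusted p = 0.0759) and -0.80 (adjusted p = 0.0521), neither called. The fourth probe, Gm05862, was the noisiest, with a residual SD of 0.822 that lay at percentile 97.1 of all tested probes. It had no call in any pairwise comparison of the main model. It stood at 0.71 ± 0.409 at 1 h and at -1.02 ± 0.409 at 8 h (adjusted p = 0.0851). It was called at 8 h with array weights (adjusted p = 0.0139) and without replicate 3 (0.00148). Restricting to arrays that held both RNAs gave 0.0215, and no other setting called it. The 8 h call of Gm03591 was lost under 10 of 15 other settings, among them leaving out any 1 replicate.

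The difference from water was unequal over the 4 times in Gm00767 (limma F test, adjusted p = 0.0177) and Gm03591 (adjusted p = 0.0431), where 3.4% of tested probes were called. The former call was lost without replicate 1 or 2 (adjusted p = 0.519 and 0.186). The latter was lost under 5 of 13 settings, among them leaving out any 1 replicate (adjusted p 0.0555 to 0.611), the 4 arrays that closed more tightly turned (0.0689) and the replicate block (0.0611). In Gm05058 the same test gave an adjusted p of 0.0932. The change over time within bentazon was called in Gm03591 alone among the UGT1 probes (adjusted p = 0.0139, 16.2% of tested probes called), and it was lost without replicate 1 or 2 (0.185 and 0.118). Its levels were 0.28, 0.73, 0.41 and -0.99 in order of time, each relative to the mean of the 12 groups. In water no UGT1 probe was called for change over time, with adjusted p from 0.417 to 0.956.

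**Figure D1:**
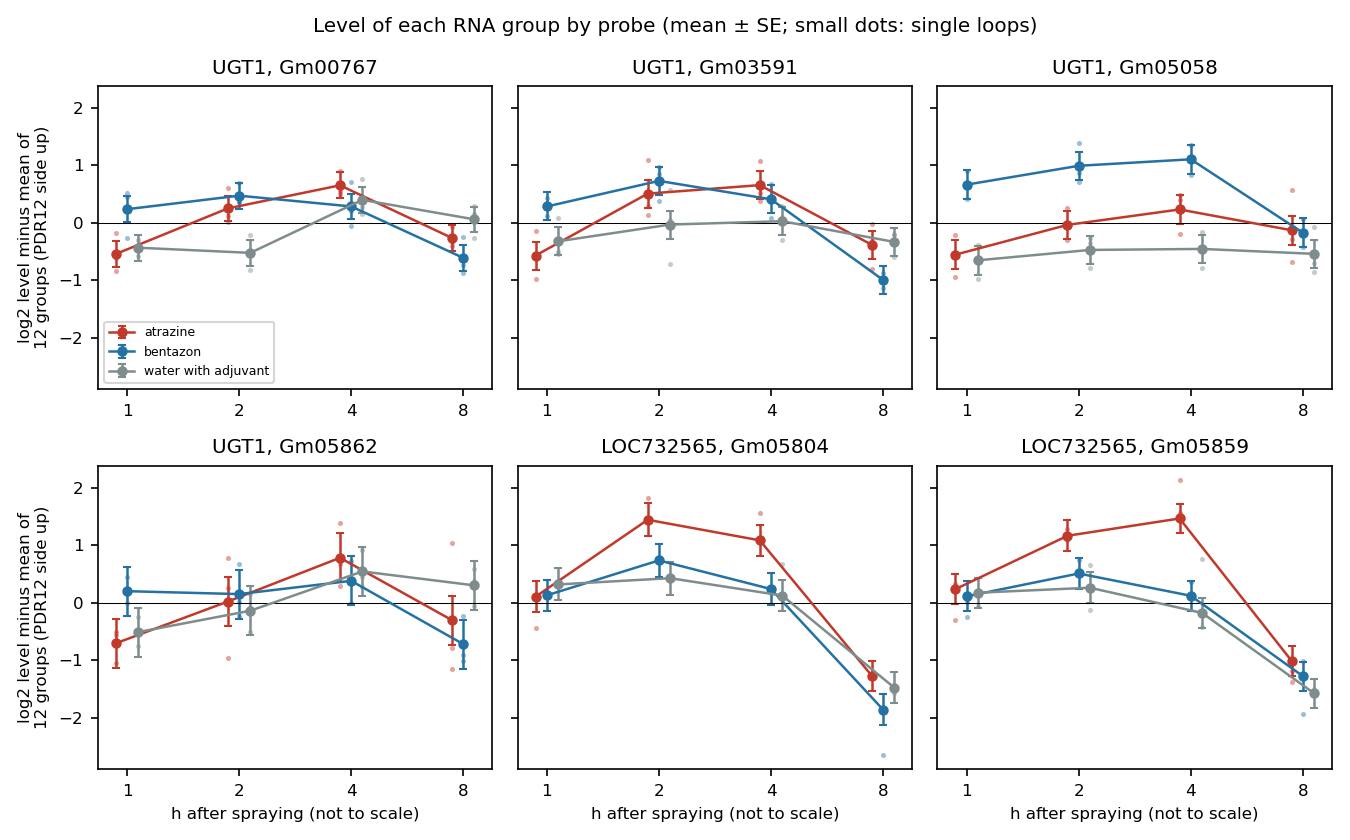
Level of each RNA group (log2, relative to the mean of the 12 groups, PDR12 side up) against time after spraying for the 6 tested probes; large points are the fit with its SE, small dots the loops that could be solved alone. The bentazon line of Gm05058 stands apart from water until 4 h, and both LOC732565 probes are most negative at 8 h in all 3 treatments.

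Under atrazine UGT1 was called in 1 probe at 2 h and in 1 other at 4 h. At 1 h none of its 4 probes was called and the values ran from -0.25 to 0.10, while 3.4% of tested probes were called. At 2 h all 4 lay on the PDR12 side, from 0.16 to 0.77, and Gm00767 was called at 0.77 ± 0.214 (adjusted p = 0.0279, 5.24% of tested probes called). Its loops gave 0.64, 0.83 and 0.84, and leaving out any 1 replicate ended the call (adjusted p 0.09 to 0.207) with values of 0.74 to 0.84. At 4 h the 4 values ran from 0.24 to 0.69 and Gm05058 was called at 0.69 ± 0.238 (adjusted p = 0.0428), in a comparison where 17.9% of tested probes were called. The 3 arrays behind it gave 0.18, 0.64 and 1.28, a spread wider than the difference itself, and leaving out any 1 replicate ended the call. At 8 h no probe was called, the values ran from -0.60 to 0.41, and 11.7% of tested probes were called. The atrazine difference was not called as unequal over time in any of the 4 probes (adjusted p 0.248 to 0.832, 2.4% of tested probes called).

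Set directly against each other, the herbicides differed in UGT1 at 1 h, when 3 of its 4 probes were called against a background of 5.84%. Atrazine lay away from the PDR12 side relative to bentazon in all 4 probes. Probe Gm05058 gave -1.16, -1.37 and -1.07 on the 3 arrays, with a fitted difference of -1.22 ± 0.238 (adjusted p = 0.00134). Probe Gm03591 gave -0.85 ± 0.233 (adjusted p = 0.0228), Gm00767 -0.78 ± 0.214 (adjusted p = 0.0231) and Gm05862 -0.90 ± 0.409 (adjusted p = 0.22). The call of Gm03591 was lost when any 1 replicate was left out (adjusted p 0.0554 to 0.373). That of Gm00767 was lost without replicate 1 (adjusted p = 0.123) and without replicate 2, where the value was -0.49 (adjusted p = 0.682). With only the arrays that held both RNAs, both calls were lost (adjusted p = 0.121 in Gm03591 and 0.17 in Gm00767). Each loop solved alone lost them too (0.0968 and 0.199). Gm05058 stayed called in these settings (0.0261 and 0.0246). The probes were read on the same arrays, so the 3 calls are not independent of each other. At 2 h Gm05058 remained at -1.03 ± 0.238 (adjusted p = 0.00412, background 9.62%), with arrays at -1.50, -0.46 and -1.08. At 4 h it stood at -0.87 ± 0.238 (adjusted p = 0.0155, background 10.8%), with loops at -1.54, -0.65 and -0.42, while the other 3 probes lay between 0.25 and 0.40 and were not called. At 8 h all 4 lay between 0.04 and 0.61, none was called, and 6.25% of tested probes were called.

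The difference between the herbicides was unequal over the 4 times in 3 of the 4 UGT1 probes, where 13.5% of all tested probes were called. The adjusted p was 0.00469 for Gm03591, 0.00734 for Gm00767 and 0.0204 for Gm05058, and 0.177 for Gm05862. The call of Gm05058 at 1 h was lost without replicate 2 (adjusted p = 0.0616), and that at 2 h without replicate 1 (adjusted p = 0.18). That at 4 h was lost under 4 of 15 settings, with -0.54 (adjusted p = 0.394) without replicate 1 and -0.98 (adjusted p = 0.0539) without replicate 2. The F tests of the difference between herbicides were lost without any 1 replicate in Gm03591 (adjusted p 0.0505 to 0.0685), without replicate 1 or 2 in Gm00767 (0.0864 and 0.168) and without replicate 1 or 3 in Gm05058 (0.216 and 0.221).

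**Figure D2:**
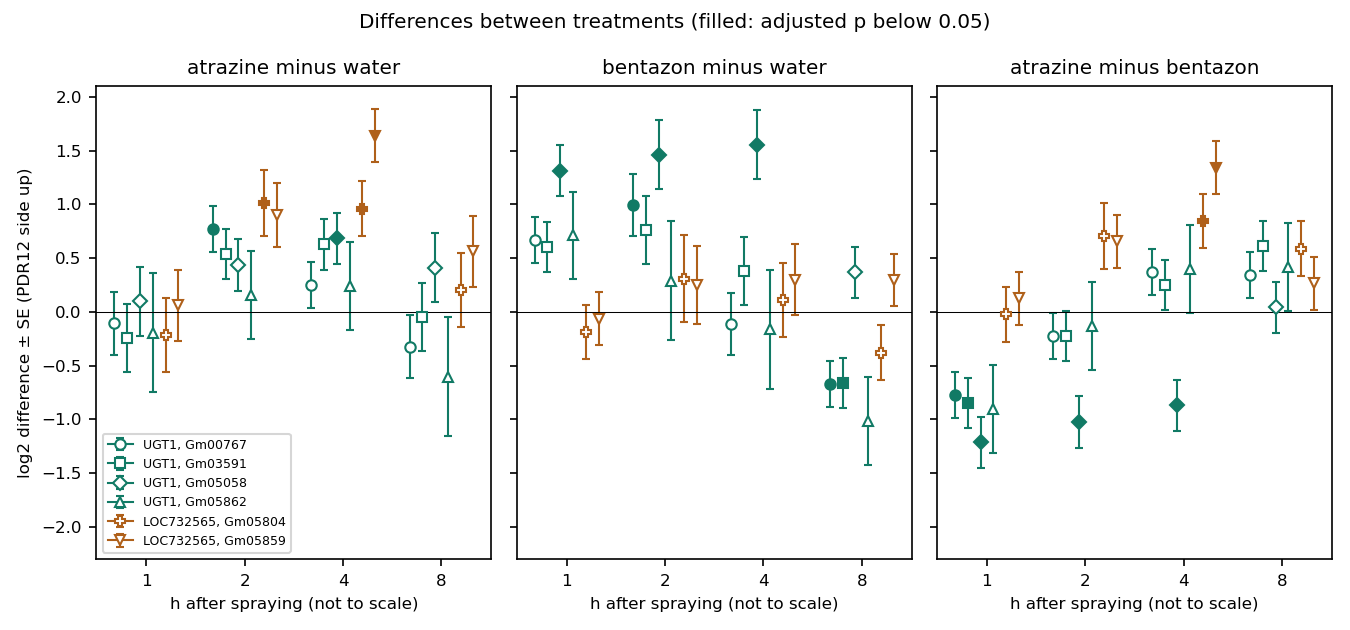
Differences between treatments (log2 ± SE, PDR12 side up) at each time for the 6 tested probes; filled symbols passed an adjusted p of 0.05. UGT1 probe Gm05058 holds the bentazon values of 1.31 to 1.56, and LOC732565 the atrazine values at 4 h of 0.96 and 1.64.

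The 4 UGT1 probes did not give 1 profile. Over the 12 group levels, which share the same 36 arrays, they correlated with each other between 0.43 and 0.91, the lowest value joining Gm05058 with Gm05862. Over the 36 arrays themselves the pairs lay between 0.49 and 0.75. Bentazon minus water at 4 h was 1.52 ± 0.158 larger in Gm05058 than the mean of the other 3 probes, and at 1 h 0.65 ± 0.117 larger. Gm05058 was singled out after its values were seen, so these are descriptions. Whether the probes detect transcripts of different related genes was not tested. The range of the 12 levels was 1.75 in Gm05058, from -0.65 in water at 1 h to 1.10 in bentazon at 4 h, and 1.26 to 1.72 in the others. The order of levels in Gm05058 began with bentazon at 4, 2 and 1 h and ended with water at 1 h, below atrazine at 1 h. In each UGT1 probe none of the 11 neighbouring pairs in the order differed by more than 2 SE.

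Both tested LOC732565 probes differed from water under atrazine. At 4 h the 3 arrays with atrazine and water RNA gave 1.73, 1.66 and 2.20 for probe Gm05859, and 0.92, 1.05 and 1.12 for Gm05804. The fitted differences were 1.64 ± 0.244 (limma adjusted p = 1.05e-05) and 0.96 ± 0.254 (adjusted p = 0.00816), both on the PDR12 side, in a comparison where 17.9% of tested probes were called. All 6 arrays lay on that side, and no array of Gm05804 reached the lowest of Gm05859. The call of Gm05859 held under all 14 other settings run, with values from 1.43 to 1.86. That of Gm05804 was lost without replicate 1 or replicate 3, with adjusted p of up to 0.121.

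At 2 h, where each probe had 2 of 3 arrays with both RNAs, the 2 probes gave differences of like size to each other. Gm05804 gave 1.21 and 0.68 on its arrays and 1.01 ± 0.306 in the fit (adjusted p = 0.0474, 5.24% of tested probes called). This call was lost under 7 of 13 other settings, among them the replicate block (adjusted p = 0.0522) and leaving out any 1 replicate (0.143 to 0.271). Gm05859 gave 0.95 and 0.40, and 0.90 ± 0.295 in the fit (adjusted p = 0.0717), below its 1.64 ± 0.244 at 4 h. It was called at 2 h with scaled arrays (adjusted p = 0.0254) and array weights (0.00129), and under no other setting. Neither probe was called at 1 h (-0.21 and 0.06) or at 8 h (0.21 and 0.56). The atrazine difference was not called as unequal over time, with adjusted p of 0.27 in Gm05804 and 0.123 in Gm05859.

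Bentazon gave no call in either tested LOC732565 probe at any time. The 8 values of the 2 probes lay between -0.38 ± 0.254 and 0.31 ± 0.406. At 1 h the arrays with bentazon and water RNA ran from -0.33 to 0.01 in Gm05804 and from -0.16 to 0.34 in Gm05859, with signs on both sides of 0.

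Atrazine and bentazon differed from each other in LOC732565 at 4 h, on the opposite side from UGT1 probe Gm05058. The arrays with both RNAs gave 0.69, 1.50 and 1.16 for Gm05859 and 0.31, 1.21 and 0.81 for Gm05804, as atrazine minus bentazon. The fits gave 1.34 ± 0.244 (adjusted p = 0.000332) and 0.85 ± 0.254 (adjusted p = 0.0289), where 10.8% of tested probes were called. The call of Gm05804 was lost when any 1 replicate was left out (0.0881 to 0.145). That of Gm05859 was lost with each loop solved alone (0.0527) or only arrays that held both RNAs (0.0619). At 2 h the values were 0.65 ± 0.244 (adjusted p = 0.0929) and 0.71 ± 0.306 (adjusted p = 0.16), the latter from 2 of 3 arrays. Gm05859 was called at 2 h with only arrays that held both RNAs (0.88, adjusted p = 0.0217) and with array weights (0.00964). No other setting called either probe there. The difference between the herbicides was called as unequal over time in Gm05859 (adjusted p = 0.0474) and not in Gm05804 (adjusted p = 0.255), and the former call was lost under 7 of 12 other settings.

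**Figure D3:**
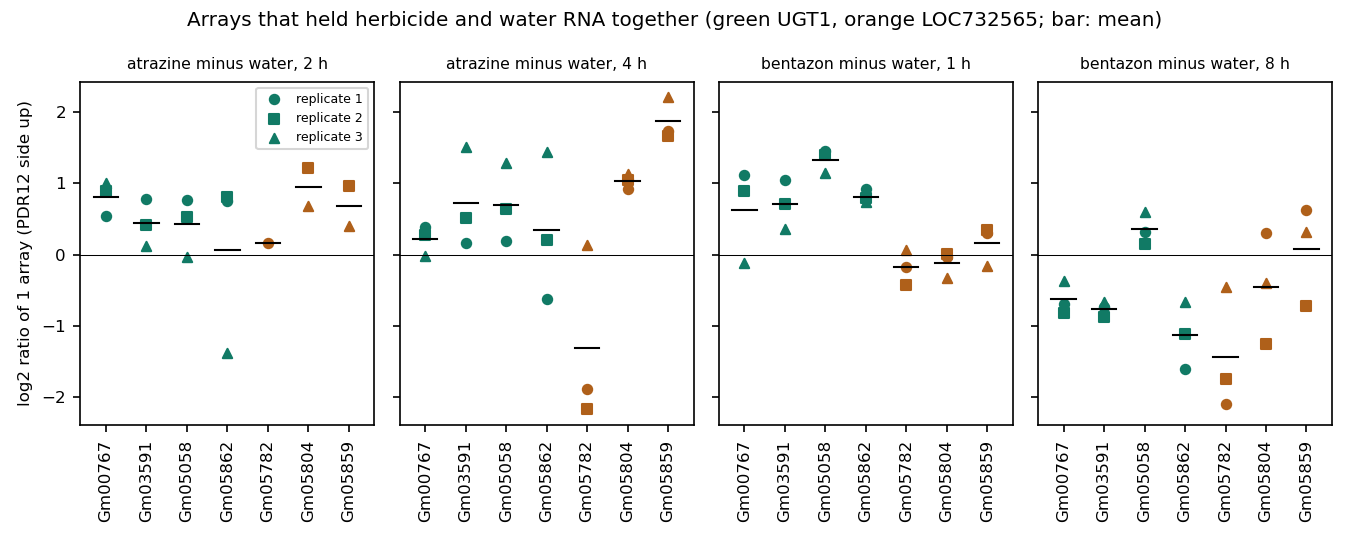
Log2 ratios (PDR12 side up) of the single arrays that held herbicide and water RNA together, for all 7 probes, UGT1 in green and LOC732565 in orange, with the mean as a bar. At 4 h under atrazine Gm05804 and Gm05859 lie between 0.92 and 2.20 in all 3 replicates, while Gm05782 lies at -1.89, -2.17 and 0.14.

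Both tested LOC732565 probes changed over time in all 3 treatments, water included. In water Gm05804 stood at 0.32, 0.43, 0.12 and -1.47 at 1, 2, 4 and 8 h, and Gm05859 at 0.17, 0.26, -0.18 and -1.57, relative to the mean of the 12 groups. The change over time in water was called in both (adjusted p = 0.000429 and 0.000919), in a comparison where 5.03% of tested probes were called. The step from 4 to 8 h was -1.60 ± 0.254 and -1.40 ± 0.244, and the 3 arrays that held both RNAs put the 8 h sample away from the PDR12 side by 1.31, 2.40 and 1.30 for Gm05804 and by 0.97, 2.53 and 1.37 for Gm05859. All 6 values pointed the same way. The array of replicate 2 gave the largest of the 3 values in both probes and is 1 of the 4 arrays that closed their loop more tightly turned. Without those 4 arrays, or without replicate 1, the water calls were lost, with adjusted p of up to 0.0749 and 0.0799.

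Under atrazine the same probes began at 0.11 and 0.24, reached 1.44 and 1.16 by 2 h, stood at 1.08 and 1.46 by 4 h, and ended at -1.27 and -1.01 (adjusted p = 2.32e-05 and 2.74e-05, 25.6% of tested probes called). Under bentazon they began at 0.13 and 0.11, reached 0.73 and 0.51 by 2 h, stood at 0.24 and 0.12 by 4 h, and ended at -1.86 and -1.27 (adjusted p = 0.000529 and 0.0135, 16.2% of tested probes called). The bentazon call of Gm05859 was lost without replicate 1 or 2 (0.166 and 0.153). The arrays that joined atrazine at 8 h and 1 h gave -1.33, -0.64 and -1.93 for Gm05804 and -0.97, -0.61 and -1.48 for Gm05859, as 8 h minus 1 h. All 3 treatments thus had their most negative value at 8 h in both probes, which cannot be read as less transcript. The time of day of each sampling is not in the labels, so time after spraying and time of day cannot be told apart.

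The ranges of the 12 levels were 3.30 in Gm05804 and 3.03 in Gm05859, at percentiles 97.4 and 96.3 of all tested probes. In the order of levels, 1 of 11 neighbouring pairs of Gm05804 differed by more than 2 SE, atrazine at 1 h above atrazine at 8 h. In Gm05859 there were 2 such pairs, atrazine at 2 h above bentazon at 2 h, and water at 4 h above atrazine at 8 h. The pair of probes correlated at 0.96 over the 12 levels and at 0.90 over the arrays. With the UGT1 probes they correlated between 0.29 and 0.80 over the levels and between -0.16 and 0.34 over the arrays.

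The third LOC732565 probe, Gm05782, lay on the opposite side from the other 2 in both comparisons with water at 4 h. It had a single array value for water against atrazine at 2 h and for water at 1 against 2 h, and was fitted only when the filter on missing values was dropped, with 18194 probes. Atrazine minus water at 4 h was -1.34 ± 0.336 (adjusted p = 0.0064, 16.6% of probes called in that fit), from arrays at -1.89, -2.17 and 0.14. Bentazon minus water was -1.61 ± 0.504 at 4 h (adjusted p = 0.0357, 12.3% called) and -1.40 ± 0.336 at 8 h (adjusted p = 0.00667, 15% called). The 8 h arrays gave -2.10, -1.75 and -0.45, the last on an array that closed its loop more tightly turned. On the arrays of atrazine at 4 h and of bentazon at 8 h, replicate 3 stood apart from the other 2. Atrazine minus bentazon was 0.51 ± 0.336, 0.27 ± 0.403 and 0.16 ± 0.336 at 2, 4 and 8 h. These values were not called and lay on the same side as in Gm05804 and Gm05859. Over the arrays that held values for both, Gm05782 correlated at -0.18 with Gm05804 (28 arrays) and at -0.38 with Gm05859 (29 arrays). Values for LOC732565 in the text are therefore given by probe, and the cause of the disagreement was not tested.

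Among 780 tested probes with a gene name, those most like each member were found by correlation over the 12 group levels, which share arrays. For UGT1 probe Gm05058 these were BZIP126 and WRKY27, both at 0.958 and both named for transcription factor families, SARK, named for a senescence-associated receptor-like kinase, at 0.928, PDR12 at 0.918 and HIDH, the dehydratase of isoflavone synthesis, at 0.915. Over the 36 arrays the same 5 correlated between 0.789 and 0.834, and 3.21% of the named probes exceeded 0.8 over the levels. In PDR12 bentazon minus water was larger, at 4.00 ± 0.436, 5.86 ± 0.587, 5.24 ± 0.587 and 1.17 ± 0.436 in order of time. Its largest value was at 2 h, and that of Gm05058 at 4 h (1.56 ± 0.321, beside 1.46 ± 0.321 at 2 h). Atrazine minus water for PDR12 lay between 0.04 and 0.61 and was not called. The likeness of HIDH was that of probe Gm05154, with bentazon minus water at 4 h of 1.37 ± 0.416 (adjusted p = 0.0259). Another HIDH probe, Gm01043, gave -0.21 ± 0.313 (adjusted p = 0.726).

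For LOC732565 the most like probes belonged to ASP1, ELIP, AS2, HPT1 and ADR11, with correlations of 0.886 to 0.964. Over the 36 arrays they correlated between 0.592 and 0.845, and 4.11% (Gm05804) and 2.7% (Gm05859) of named probes exceeded 0.8 over the levels. Atrazine minus bentazon at 4 h was called in ASP1 (1.17 ± 0.24 and 1.41 ± 0.307, adjusted p = 0.00125 and 0.00228) and not in ELIP, AS2, HPT1 or ADR11. ELIP was called against water at 4 h under both herbicides, at 1.33 ± 0.285 for atrazine and 1.51 ± 0.384 for bentazon (adjusted p = 0.00115 and 0.00765). ELIP is named for early light-induced proteins, which bind chlorophyll under light stress, and HPT1 for homogentisate phytyltransferase of tocopherol synthesis. AS2, a symbol used for asparagine synthetase, reached 0.921 with Gm05804. The like probes of the other UGT1 probes were more distant. Gm03591 reached 0.884 with DGD2, a galactolipid synthase, and 0.883 with the aquaporin PIP2-6. Gm00767 reached at most 0.791, with IFR1, and Gm05862 0.804, with GSTF7. Over the arrays Gm00767 and IFR1 correlated at only 0.191.

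**Figure D4:**
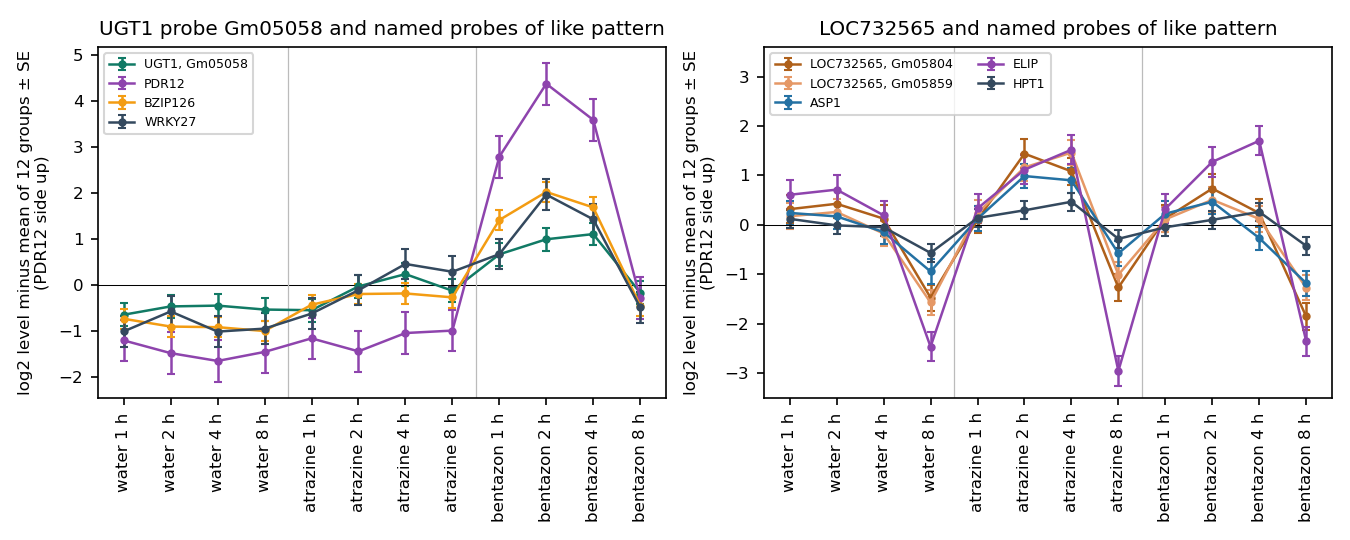
Levels of the 12 RNA groups (log2 ± SE, relative to their mean, PDR12 side up) for UGT1 probe Gm05058 with 3 named probes of like pattern, left, and for the LOC732565 probes with 3 others, right. PDR12, BZIP126 and WRKY27 lie farthest to the PDR12 side in bentazon at 2 h, and ASP1 and ELIP share the negative 8 h values.

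Among other named glycosyltransferases, 6 probes of IF7GT, PGLCAT8, DGD1 and DGD2 were tested. IF7GT, the isoflavone glucosyltransferase, carries UGT1 as a synonym in the gene table but is another gene. Bentazon minus water for IF7GT was -1.10 ± 0.286 at 4 h (adjusted p = 0.00896) and -0.70 ± 0.212 at 8 h (adjusted p = 0.0231). Both lay on the side away from UGT1 probe Gm05058, which was not called at 8 h (0.37). UGT1 probes Gm00767, Gm03591 and Gm05862 lay on the same side as IF7GT at 8 h, at -0.67, -0.66 and -1.02, the last not called. Atrazine minus water at 8 h was -0.85 ± 0.286 (adjusted p = 0.0495). Of the 3 PGLCAT8 probes, Gm16464 was called on the PDR12 side for bentazon at 8 h (0.62 ± 0.195, adjusted p = 0.0275). Calls thus numbered 1 of 6 for bentazon at 4 h, 2 of 6 at 8 h and 1 of 6 for atrazine at 8 h, beside 13.4%, 16.3% and 11.7% of all tested probes. The median of the 6 probes for bentazon minus water at 4 h was -0.02, against -0.01 over all tested probes.

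UGD1, which makes UDP-glucuronate from UDP-glucose, has 3 probes, and they disagreed. Probe Gm04995 was called on the PDR12 side under atrazine: 1.67 ± 0.422 after 1 h (adjusted p = 0.0209), 1.27 ± 0.313 after 2 h (adjusted p = 0.0123) and 0.96 ± 0.313 after 4 h (adjusted p = 0.0295). Probe Gm00324 of UGD1 gave -0.63, -0.27 and -0.28 at these times and Gm15020 0.07, -0.06 and 0.50, without a call. Of the 6 UDP-sugar supply probes, which also include sucrose synthase, 1 was called at each of these times, beside 3.4%, 5.24% and 17.9% of all tested probes, and none against water under bentazon. CYP93E1, the hydroxylase of soyasaponin synthesis and the only saponin gene matched, lay far on the other side in 2 of its 3 probes. Atrazine minus water at 4 h was -2.29 ± 0.311 and -1.93 ± 0.267 (adjusted p = 2.09e-06 and 2.88e-06), where 17.9% of tested probes were called. Bentazon minus water at 8 h was -2.20 ± 0.311 and -2.22 ± 0.267 (adjusted p = 2.18e-05 and 2.75e-06), where 16.3% were called. The third probe, Gm18022, gave 0.12 ± 0.177 (adjusted p = 0.716) in the former comparison. In the latter it was called at -0.54 ± 0.177 (adjusted p = 0.0359).

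The isoflavonoid list held 57 tested probes from 15 genes. For atrazine minus water 3 were called on the PDR12 side and 0 on the other at 4 h, and 2 and 6 at 8 h, where 17.9% and 11.7% of all tested probes were called. Bentazon minus water gave 1 and 2 by 4 h and then 2 and 1 by 8 h, where 13.4% and 16.3% were called. The medians at 4 h were -0.155 under atrazine and -0.18 under bentazon. Of 27 glutathione transferase probes from 16 genes, 4, 5, 6 and 5 were called on the PDR12 side for bentazon minus water in order of time, and 0, 0, 1 and 1 on the other, beside 3.35%, 7.58%, 13.4% and 16.3% of all tested probes. For atrazine minus water 0, 0, 2 and 1 were called on the PDR12 side and 1, 2, 4 and 1 on the other, beside 3.4%, 5.24%, 17.9% and 11.7%. Over all tested probes, bentazon minus water gave 422, 809, 1193 and 1506 calls on the PDR12 side in order of time. On the other side it gave 149, 484, 1094 and 1268. Atrazine minus water gave 364, 436, 1560 and 962 on the PDR12 side, and 216, 458, 1499 and 1033 on the other. The list counts are descriptions and were not tested as lists.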

How the data were processed

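The data are log ratios of 36 two-colour arrays of total RNA, labelled indirectly with Cy3 and Cy5 per the labels' protocols. The values deposited by the authors were taken as log2. No label or header used here names their log base, numerator, background correction or normalization. No intensities were used, so the number of arrays limits the precision. One linear model per probe (11 RNA differences and 1 dye term) was fitted in R 4.3.3 with limma 3.58.1, exactly for each pattern of missing values, with moderated variances (24 residual and 7.559 prior degrees of freedom). The fitting code was run on simulated data with independent normal noise on each array. Those data held no variation shared by arrays of the same extract and no replicate effect. They therefore cannot show whether the p-values hold under either. Probes needed values on at least 2 of 3 arrays of each type, which 17062 of 19200 met. The arrays held 16648 to 18484 values. The members, the lists and the sign probe were chosen with earlier results of these data known. Probe names come from GEO's platform annotation, updated by gene ID through a RefSeq gene table, and lists were matched by symbol or synonym. The text names all member probes, the list genes and the 5 most like named probes per member. Same-numbered arrays of the 162 pairs without a shared RNA deviated with correlations from -0.431 to 0.453, at a median of 0.0104. These are ratios within arrays, in which an effect common to a replicate can cancel, so the median cannot decide whether replicates were paired. The main model did not use the replicate numbers, and the replicate block was run as another setting. Figures used matplotlib 3.10.9 in Python 3.11.15.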

Additional observations from a re-analysis of the deposited data

Results flagged for a closer look

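The difference between treatments was unequal over the 4 times by a limma F test in 6 cases. For bentazon minus water these were UGT1 probes Gm00767 (adjusted p = 0.0177) and Gm03591 (adjusted p = 0.0431), which changed side between 2 and 8 h. For atrazine minus bentazon they were Gm00767 (adjusted p = 0.00734), Gm03591 (adjusted p = 0.00469) and Gm05058 (adjusted p = 0.0204) of UGT1 and Gm05859 of LOC732565 (adjusted p = 0.0474). Leaving out 1 replicate ended each of these calls for at least 1 choice of replicate, with adjusted p of up to 0.519, 0.611, 0.168, 0.0685, 0.221 and 0.202 in the order named. The replicate block ended those of Gm03591 for bentazon minus water (0.0611) and of Gm05859 (0.0634).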

How the results depend on the processing

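No called member value changed side under the settings run, which also held centring, scaling, a robust prior, no filter, no dye term and an extract variance. Of 24 values per comparison, calls for atrazine minus water numbered 5, and 8 with array weights, 3 with the replicate block, 2 with only probes that had all 36 values, 2 with each loop solved alone, 3 with only arrays that held both RNAs and 1 to 2 when a replicate was left out. Complete probes, single loops and shared arrays tested 16, 20 and 12 of these values. For bentazon minus water they numbered 6, and 10 with array weights and 0 to 6 when a replicate was left out, the 0 without replicate 1. For atrazine minus bentazon they numbered 7, and 2 with each loop solved alone, 3 with only arrays that held both RNAs and 2 to 5 when a replicate was left out. Calls for change over time numbered 7 of 18, and 1 with only probes that had all 36 values, which drops both LOC732565 probes, and 3 to 8 when a replicate was left out. Calls for effects unequal over time numbered 6 of 18, and 0 to 3 when a replicate was left out. Restricting atrazine minus bentazon to shared arrays tested the same 24 values with fewer arrays each. The causes were not tested otherwise. A missing value kept 2 loops of Gm05804 and 1 of Gm05859 from being solved alone.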
